A study of Mus musculus with 4 samples.

Results

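The genes examined here encode the ligands and receptors of the IL-1, IL-6 and TNF pathways of inflammatory signaling. They were taken by gene name from the deposited count table and number 9 of its 29300 genes, of which 3 are ligands (Il1b, Il6 and Il18) and 6 are receptor chains (Il1r1, Il1rap, Il6ra, Il6st, Tnfrsf1a and Tnfrsf1b). Hippocampal RNA was sequenced from 2 control (sham) mice and 2 surgery mice, all wild-type C57BL/6 males aged 7 to 8 months. Both groups received isoflurane anesthesia and tramadol analgesia, and the surgery mice also received an open tibial fracture fixed with an intramedullary nail. Tissue was taken on day 1 after the procedure, so that the comparison addresses the fracture on top of anesthesia and analgesia at a single time. The whole hippocampus was used, in which fewer cells of a type and less RNA per cell cannot be told apart.

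IL-1β and IL-18 are made as inactive precursors that caspase-1 cleaves. IL-1β binds the receptor encoded by Il1r1, which recruits the accessory chain encoded by Il1rap and passes the signal through the adaptor MyD88 to NF-kB. IL-6 binds the chain encoded by Il6ra, and the complex signals through the shared chain gp130, encoded by Il6st, to the JAK kinases and STAT3. TNF binds 2 receptors, encoded by Tnfrsf1a, which carries a death domain, and by Tnfrsf1b, which lacks one. In the brain, microglia are the main source of IL-1β, and receptor chains of these pathways are found on endothelial cells, glia and neurons.

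Library totals ran from 15763432 to 18573386 counts. Markers of hippocampal fields (Prox1, Neurod6, Wfs1 and Spink8) were present in all 4 mice, with a summed level from 389 to 469 CPM (counts scaled to library size with TMM factors). Of these 4, Neurod6 was higher and Wfs1, which marks field CA1, was lower in the surgery mice (log2 fold changes 0.53 and -0.70, adjusted p = 0.029 and 0.0085 by edgeR's quasi-likelihood test; 0.12 and -0.43, adjusted p = 0.65 and 0.10, with a correction for transcript length and GC content), named after their values were seen, and their part in the results was not tested. The 6 choroid plexus markers differed widely between mice, with summed levels of 127 and 5423 CPM in the control mice against 2027 and 3446 CPM in the surgery mice. Of the 9 genes, 7 passed the filter on low counts and were tested together with all 17144 genes that passed it, while Il1b and Il6 did not. A gene is said to have risen or fallen here where the adjusted p-value was under 0.05 in edgeR's quasi-likelihood test (Benjamini-Hochberg, over all genes tested), and it is called a DEG if its fold change is also at least 1.5 or at most 0.67. At 2 mice per group, an exact permutation test of a single gene cannot go below p = 0.33, so that the p-values rest on the spread that edgeR estimates jointly over genes.

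Il1r1 and Il1rap, the 2 chains of the IL-1 receptor, were the genes of the 9 that rose in the surgery mice, and Il1r1 was the single DEG. By the same threshold 26.0% of all genes tested changed, 13.1% upward, so that 2 of 7 tested members is near the share of all genes. DEGs made up 9.01% of all genes tested, with 6.75% higher and 2.25% lower. The ligand transcript Il6 had 2 counts or fewer in each mouse, and Il1b had 14 or fewer. All 7 tested genes had a log2 fold change above 0, against 50.9% of all genes tested, but Il1rap and Il6st fell below 0 with a correction for transcript length and GC content, and Il6ra, Tnfrsf1a and Tnfrsf1b did without the second surgery mouse. In 4 of them (Il18, Il1r1, Il1rap and Il6st) both surgery mice lay above both control mice, which held for 33.2% of all genes tested, while 32.2% were lower in both and 65.5% did not overlap in either direction. The surgery mice differed from each other by more than 1.5-fold in 3 receptor genes (Il6ra, Tnfrsf1a and Tnfrsf1b).

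**Figure D1:**
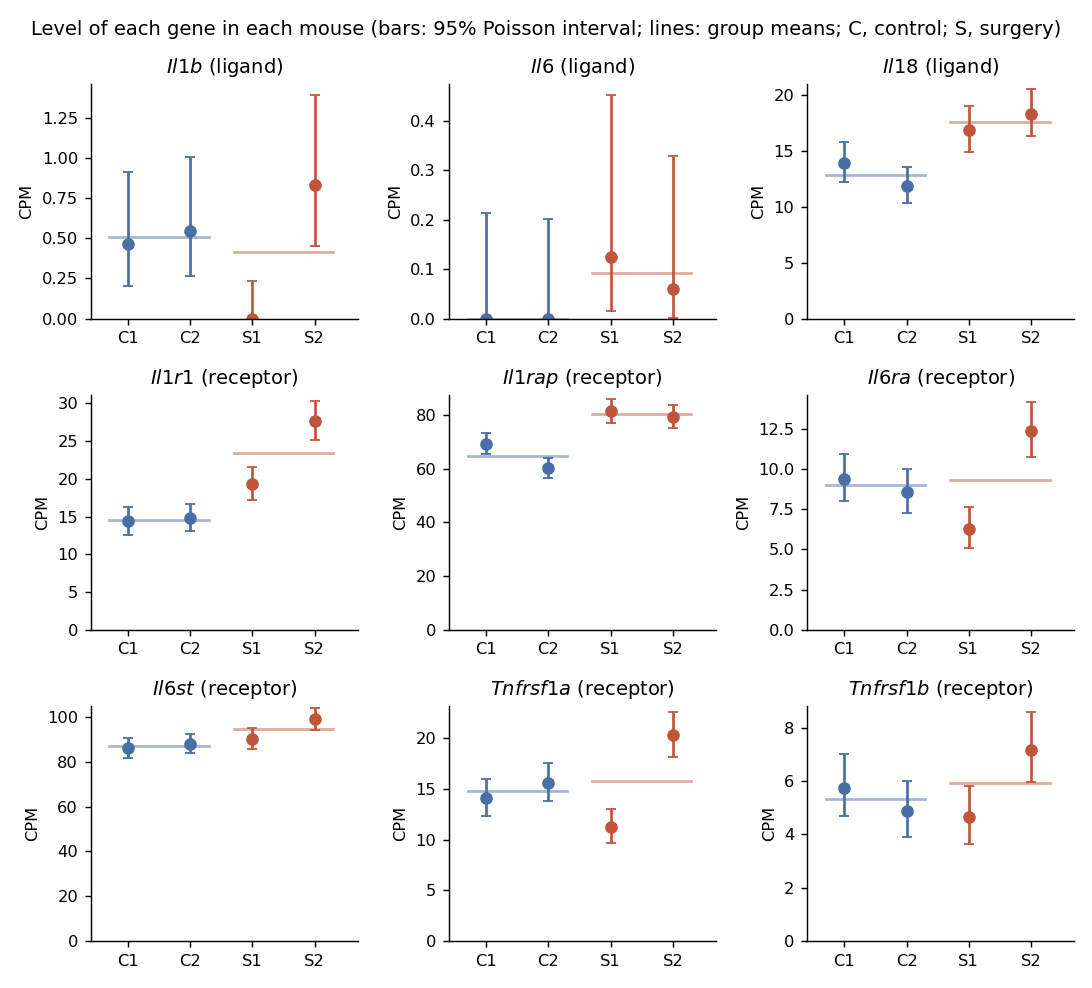
Level of each of the 9 genes in each mouse in CPM (y axis from 0, scaled to each gene), with control mice (C1, C2) in blue and surgery mice (S1, S2) in red, 95% Poisson intervals of the count as bars and group means as lines. Il18, Il1r1 and Il1rap are above both control mice in both surgery mice, while for Il1b, Il6ra, Tnfrsf1a and Tnfrsf1b the first surgery mouse lies below and the second above both control mice.

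Il1b (ENSMUSG00000027398, mm10 chromosome 2, 129364570 to 129371139, minus strand) encodes the IL-1β precursor. It had 8 and 10 counts in the control mice, 0 in the first surgery mouse and 14 in the second. Both control mice thus lay between the surgery mice, and no direction can be given. The limit used for 0 counts, 3 counts, stands at 0.188 CPM in the first surgery mouse. By 95% Poisson intervals that mouse reached up to 0.231 CPM, and the second surgery mouse had 0.830 CPM (0.454 to 1.39). The 95% counting interval of the ratio of the second to the first surgery mouse began at 3.13. Intervals and limits of this kind cover counting error only. In a fit without the filter on low counts, the adjusted p-value of Il1b was 0.90 by edgeR's quasi-likelihood test. Exons of Il1b overlap those of Il1bos, an RNA on the opposite strand, by 25 nt. Il1bos had 2 and 4 counts in the control mice against 9 and 1 in the surgery mice, and the sources used here do not say whether the counting used strand.

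Il6 (ENSMUSG00000025746, mm10 chromosome 5, 30013114 to 30019981, plus strand) encodes IL-6. It had 0 counts in both control mice, 2 in the first surgery mouse and 1 in the second. The limit of 3 counts stands at 0.174 and 0.164 CPM in the control mice. By 95% Poisson intervals the control mice reached up to 0.214 and 0.202 CPM, and the surgery mice had 0.125 (0.0152 to 0.453) and 0.0593 (0.0015 to 0.330) CPM. All 4 mice were therefore under the limit of 3 counts, and a difference was not detectable at this depth. Without the filter, the adjusted p-value was 0.24 by the same edgeR test.

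The bases before the annotated start of these 2 ligand genes are shown because both are classical targets of inflammatory transcription factors and failed the filter on low counts. The windows hold the 250 bases upstream of the RefSeq start (GRCm38.p6, the assembly of mm10), and capitals mark matches on either strand to 4 motifs, which are the degenerate NF-kB motif, STAT with the letters TTCNNNGAA, CRE with TGACGTCA and TATA with TATAAA.
Il6, chr5:30012864-30013113, plus strand: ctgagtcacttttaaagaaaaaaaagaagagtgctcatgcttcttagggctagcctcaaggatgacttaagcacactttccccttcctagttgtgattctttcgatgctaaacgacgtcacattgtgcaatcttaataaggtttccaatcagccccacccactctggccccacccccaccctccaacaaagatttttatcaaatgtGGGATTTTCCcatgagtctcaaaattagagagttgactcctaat
Il1b, chr2:129371140-129371389, minus strand: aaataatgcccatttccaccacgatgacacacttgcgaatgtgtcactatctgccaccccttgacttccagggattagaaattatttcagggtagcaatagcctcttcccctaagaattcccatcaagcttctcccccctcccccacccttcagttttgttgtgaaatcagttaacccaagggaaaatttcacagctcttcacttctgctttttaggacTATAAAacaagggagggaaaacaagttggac
The capitals in Il6 are an NF-kB match from -44 to -35 relative to the start, and those in Il1b are a TATA match from -31 to -26. Il18 also held a TATA match, on the minus strand. Over the 32851 RefSeq promoter windows of the same length, 3.90% held an NF-kB match, 7.02% a STAT match, 1.55% a CRE match and 12.4% a TATA match. A match describes the letters only, and no match in the windows of the 9 genes overlapped one of another motif.

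Il18 (ENSMUSG00000039217, mm10 chromosome 9, 50554827 to 50581840, plus strand), the third ligand, was expressed at a higher level than any other of the 9 genes per length. Its level was 13.9 and 11.8 CPM in the control mice against 16.8 and 18.3 CPM in the surgery mice. The surgery mice were both above the control mice, from 12.8 ± 1.46 to 17.6 ± 1.06 CPM (mean ± SD of n = 2 mice). The log2 fold change was 0.45 with a standard error of 0.14, and the adjusted p-value of 0.055 by edgeR's quasi-likelihood test just missed the threshold. With library totals in place of TMM it was 0.041, and with a minimum count of 30 it was 0.042 by the same edgeR test. In the other 12 alternatives it missed the threshold, with 0.11 by DESeq2 and without the filter, 0.23 without the second control mouse and 0.17 without the second surgery mouse.

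Il1r1 (ENSMUSG00000026072, mm10 chromosome 1, 40225080 to 40317257, plus strand) encodes the receptor chain that binds IL-1β. It had 247 and 271 counts in the control mice against 307 and 466 in the surgery mice, or 14.3, 14.8, 19.3 and 27.6 CPM. The control mice were nearly equal, and the second surgery mouse stood above the first. The mean rose from 14.6 ± 0.345 to 23.4 ± 5.91 CPM (mean ± SD of n = 2 mice), a 1.61-fold rise with a log2 fold change of 0.69, a standard error of 0.18 and 0.037 as the adjusted p-value by edgeR's quasi-likelihood test. Its 95% interval ran from 1.19-fold to 2.18-fold. The call was lost without the first control mouse (adjusted p = 0.081 by the same edgeR test), without the second control mouse (0.081) and without the second surgery mouse, where the log2 fold change was 0.41 (adjusted p = 0.12).

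RefSeq gives 2 start sites for Il1r1, and a count per gene does not tell their transcripts apart. The bases before both are shown because Il1r1 was the DEG among the 9 genes, with the same motifs in capitals.
Il1r1 upstream start, chr1:40224830-40225079, plus strand: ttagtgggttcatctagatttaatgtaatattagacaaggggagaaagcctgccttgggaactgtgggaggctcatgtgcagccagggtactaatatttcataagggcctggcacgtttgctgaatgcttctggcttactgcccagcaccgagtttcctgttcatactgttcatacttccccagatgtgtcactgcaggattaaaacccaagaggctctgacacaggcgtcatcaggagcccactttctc
Il1r1 downstream start, chr1:40266336-40266585, plus strand: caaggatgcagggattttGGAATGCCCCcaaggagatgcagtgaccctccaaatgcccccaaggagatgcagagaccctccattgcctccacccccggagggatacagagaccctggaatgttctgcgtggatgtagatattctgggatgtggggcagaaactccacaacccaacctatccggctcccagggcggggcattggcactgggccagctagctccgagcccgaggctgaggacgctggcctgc
The first window held none of the 4 motifs, and the second held an NF-kB match on the minus strand, from -232 to -223 relative to the start. Of the other receptor genes, Tnfrsf1a and Tnfrsf1b held a STAT match each (TTCCGTGAA and TTCCCGGAA), and no match was found in the windows of Il1rap, Il6ra and Il6st.

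Il1rap (ENSMUSG00000022514, mm10 chromosome 16, 26581704 to 26730117, plus strand) encodes the accessory chain without which Il1r1 does not signal. It had 1191 and 1099 counts in the control mice against 1299 and 1339 in the surgery mice. Its level was 69.1 and 60.1 CPM in the control mice against 81.5 and 79.3 CPM in the surgery mice, so that the groups did not overlap and the surgery mice were close to each other. The mean rose from 64.6 ± 6.37 to 80.4 ± 1.495 CPM (mean ± SD of n = 2 mice), with a log2 fold change of 0.32, a standard error of 0.09 and 0.041 as the adjusted p-value by edgeR's quasi-likelihood test. This is a 1.24-fold rise, under the fold change that defines a DEG. The adjusted p-value was 0.18 without the second control mouse, 0.10 without the first surgery mouse and 0.064 without the second, by the same edgeR test. The gene's exons overlap those of Gm20319 on the opposite strand by 552 nt, and Gm20319 had 3 to 8 counts in each mouse.

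Both calls depended on the processing. Without the filter on low counts the adjusted p-values were 0.099 for Il1r1 and 0.11 for Il1rap by edgeR's quasi-likelihood test. When the dependence of every library on transcript length and GC content was taken out, 2.59% of all genes tested passed (443 genes), and 0.648% were higher (111 genes). Of the 7 genes 0 passed, and 0 had an unadjusted p-value under 0.05 in this edgeR fit. The log2 fold change of Il1r1 was then 0.36 (adjusted p = 0.26), that of Il18 0.17 (0.52) and that of Il1rap -0.10 (0.54), each by edgeR's quasi-likelihood test. The transcripts of these 3 genes had the lowest GC contents of the 7, with 43.9% for Il1r1, 45.1% for Il18 and 42.1% for Il1rap, while the other 4 ran from 47.4% to 55.9%. The correction raised the log2 fold change of the receptor genes with the highest GC contents, to 0.31 for Tnfrsf1a and 0.30 for Tnfrsf1b (adjusted p = 0.51 and 0.54 by the same edgeR test).

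**Figure D2:**
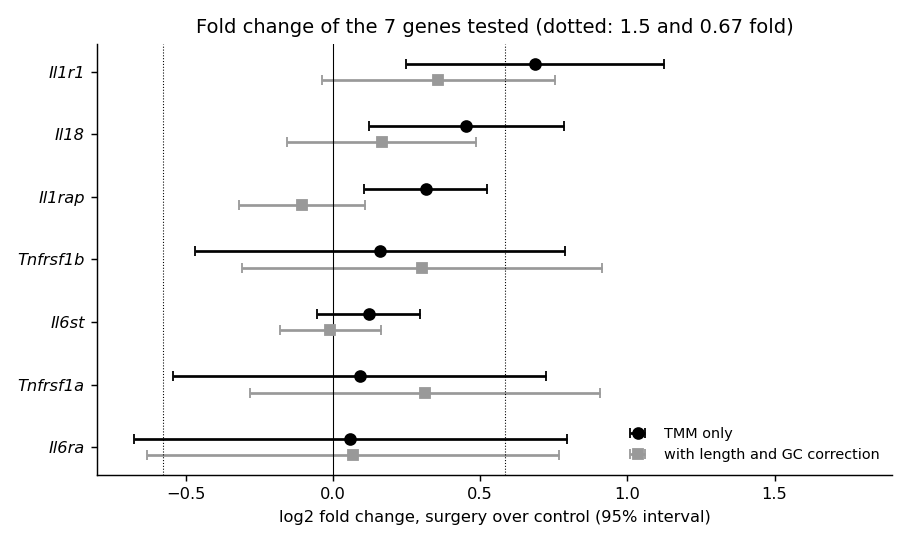
Log2 fold change of surgery over control mice for the 7 genes tested, with 95% intervals, scaled by TMM (black circles) and with the length and GC correction (gray squares), the dotted lines marking fold changes of 1.5 and 0.67. The intervals of Il1r1, Il18 and Il1rap lie above 0 under TMM alone, and all 7 intervals include 0 with the correction.

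The IL-6 receptor chains did not pass the test. Il6st (ENSMUSG00000021756, mm10 chromosome 13, 112464070 to 112510086, plus strand), which encodes gp130, had 86.2 and 88.2 CPM in the control mice against 90.4 and 99.1 CPM in the surgery mice. The groups did not overlap, but the difference was small, with a log2 fold change of 0.12, a standard error of 0.07 and 0.27 as the adjusted p-value by edgeR's quasi-likelihood test. Its 95% interval, from 0.963-fold to 1.23-fold, excludes a change of 1.5-fold. Il6ra (ENSMUSG00000027947, mm10 chromosome 3, 89864059 to 89913196, minus strand), which encodes the chain that binds IL-6, had 162 and 157 counts in the control mice, 100 in the first surgery mouse and 209 in the second. At 9.40 and 8.59 CPM, both control mice lay between the surgery mice, at 6.27 and 12.4 CPM. The log2 fold change was 0.06 with a standard error of 0.31, and the 95% interval ran from 0.626-fold to 1.73-fold. Exons of Il6ra overlap those of Gm42809 on the opposite strand by 242 nt, and Gm42809 had 0 to 3 counts in each mouse. Without the second surgery mouse the log2 fold change of Il6ra was -0.51, and without the first it was 0.45 (adjusted p = 0.17 and 0.14 by the same edgeR test).

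The TNF receptors followed the pattern of Il6ra. Tnfrsf1a (ENSMUSG00000030341, mm10 chromosome 6, 125349362 to 125362484, plus strand) had 242 and 285 counts in the control mice, 179 in the first surgery mouse and 342 in the second, or 14.1, 15.6, 11.2 and 20.3 CPM. Tnfrsf1b (ENSMUSG00000028599, mm10 chromosome 4, 145213463 to 145246870, minus strand) had 99 and 89 counts in the control mice, 74 in the first surgery mouse and 121 in the second, or 5.75, 4.87, 4.64 and 7.17 CPM. In both genes the first surgery mouse was the lowest and the second the highest of the 4. The log2 fold changes were 0.09 (standard error 0.26) for Tnfrsf1a and 0.16 (0.26) for Tnfrsf1b, with adjusted p-values of 0.83 and 0.69 by edgeR's quasi-likelihood test. The 95% intervals, from 0.686-fold to 1.65-fold and from 0.723-fold to 1.73-fold, do not exclude a change of 1.5-fold. Without the second surgery mouse the log2 fold changes were -0.40 and -0.19, and without the first they were 0.44 and 0.42.

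The spread between the surgery mice was larger for these receptors than for most genes. Il6ra was 1.98 times as high in the second surgery mouse as in the first (95% counting interval 1.55 to 2.53), Tnfrsf1a 1.81 times (1.502 to 2.18), Tnfrsf1b 1.55 times (1.15 to 2.09) and Il1r1 1.43 times (1.24 to 1.66). A ratio of at least 1.5 in this direction was found in 7.96% of all genes tested and in 3 of the 7 genes here. The corresponding ratios between the control mice were 0.913, 1.11, 0.847 and 1.03, all with intervals that include 1. Il18, Il6st and Il1rap had ratios between the surgery mice of 1.09, 1.10 and 0.974. Over all genes tested the median absolute log2 ratio was 0.13 within each group.

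**Figure D3:**
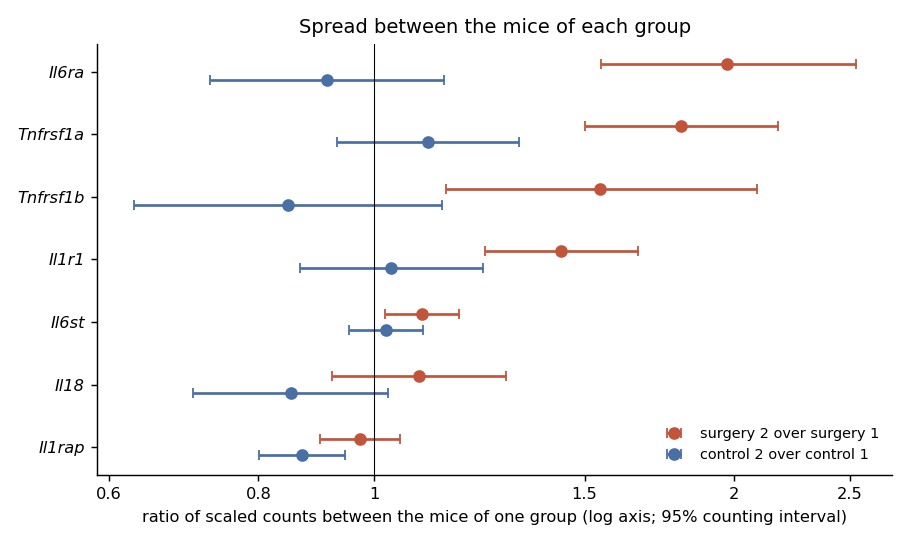
Ratio of scaled counts between the mice of one group (x axis, logarithmic) for the 7 genes tested, with 95% counting intervals, for the surgery mice in red and the control mice in blue. Il6ra, Tnfrsf1a, Tnfrsf1b and Il1r1 have ratios of 1.43 to 1.98 between the surgery mice, and their control ratios lie close to 1.

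Markers of vascular cells and of blood neutrophils also differed between the surgery mice. All 7 endothelial markers (Cldn5, Pecam1, Flt1, Tek, Cdh5, Ly6c1 and Slco1a4) were higher in the second surgery mouse than in the first, 3 of them by at least 1.5-fold, and none was at 0. Their summed level was 228 and 239 CPM in the control mice against 247 and 337 CPM in the surgery mice. Flt1, a receptor for vascular growth factors, and Slco1a4, a transporter of the blood-brain barrier, were the 2 of the 7 that rose in the surgery mice (log2 fold changes 0.41 and 0.87, adjusted p = 0.024 and 0.014 by edgeR's quasi-likelihood test). The 6 neutrophil markers were all lowest in the first surgery mouse, with a summed level of 1.57 CPM against 8.71 CPM in the second and 7.32 and 12.4 CPM in the control mice, and Camp, Mmp8 and Retnlg had 0 counts there, as did Il1b. The 8 microglial markers had a summed level of 341 and 328 CPM in the control mice against 320 and 339 CPM in the surgery mice, and 1 of them, P2ry12, a receptor for nucleotides, rose (log2 fold change 0.84, adjusted p = 0.0046 by the same edgeR test). The other 7 did not pass, with log2 fold changes from -0.31 for Cx3cr1 to 0.14 for C1qa, and the median over the 8 was -0.10. With the length and GC correction Flt1, Slco1a4 and P2ry12 did not pass, at log2 fold changes of 0.41, 0.33 and 0.19 (adjusted p = 0.058, 0.26 and 0.35 by the same edgeR test). With the replicate block added to it, 3 of the 7 endothelial markers were higher (Flt1, Pecam1 and Slco1a4) and 2 of the 3 tested neutrophil markers were lower (S100a8 and S100a9) in the surgery mice, in a fit where 14.5% of all genes tested passed. All 5 oligodendrocyte markers were at least 1.5-fold higher in the first surgery mouse than in the second, with summed levels of 5783 and 3733 CPM, and of 5870 and 5081 CPM in the control mice. The part of these cells in the levels of the cytokine and receptor genes was not tested.

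Levels of different genes were compared as CPM per kb of annotated exons. By this level the order was Il18, Il6st, Il1rap, Tnfrsf1a, Il1r1, Tnfrsf1b, Il6ra, Il1b and Il6, with means over the 4 mice from 14.7 for Il18 through 8.20 for Il6st to 1.06 for Il6ra and 0.241 for Il1b. Of the 8 neighbouring pairs in this order, 6 stood the same way in all 4 mice. Il1rap, with 5.29 to 7.17, and Tnfrsf1a, with 4.33 to 7.82, could not be ordered per kb of exons, and neither could Il1b and Il6. The ranges over mice of Tnfrsf1b, from 1.22 to 1.88, and Il6ra, from 0.726 to 1.43, overlapped, as did those of Tnfrsf1a and Il1r1. When the length of the longest transcript was used instead, Il1rap, whose exons sum to 11360 nt but whose longest transcript has 4520 nt, stood above Il6st in all 4 mice.

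Ratios were taken within each mouse, where library scaling has no part, for chains that work together and for the 2 separate TNF receptors. The level per kb of Il6st, the signaling chain, was 7.13 and 7.99 times that of Il6ra in the control mice against 11.2 and 6.23 times in the surgery mice. The control mice lay between the surgery mice. The ratio of Il1rap to Il1r1 per kb was 2.70 and 2.27 in the control mice against 2.37 and 1.61 in the surgery mice, which overlapped, and its mean difference on the log2 scale was -0.34 with SDs of 0.18 and 0.39 (n = 2 mice per group). The size of this ratio depends on the length used, and per kb of the longest transcripts it was 6.21, 5.22, 5.45 and 3.699 in the same order. Tnfrsf1a to Tnfrsf1b gave 3.60 and 4.72 in the control mice against 3.56 and 4.17 in the surgery mice, so that the groups overlapped.

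Beyond the 9 genes, 85 other genes of the pathways were listed, of which 84 are in the table and 69 were tested. Of these, 7 rose and 3 fell in the surgery mice, or 14.5% against 26.0% of all genes tested, with a median log2 fold change of 0.13 against 0.01 over all genes. With the length and GC correction 0 of the 69 passed in edgeR's quasi-likelihood test, 13 had an unadjusted p-value under 0.05, and 3 of the 10 changed sign (Il1rapl1, Peli1 and Cyld). Without the second control mouse 5 passed in place of 10.

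Among other ligands, 3 of 11 were tested and 0 passed by edgeR, DESeq2 or limma's voom, with 0 at an unadjusted p-value under 0.05. Tnf, the gene of TNF itself, had 1 count in the second surgery mouse and 0 in the other 3 mice, Il1a had 6 and 4 counts in the control mice against 6 and 12 in the surgery mice, and Il1rn, the IL-1 receptor antagonist, had 1, 6, 0 and 4 counts in the same order. Of 8 tested receptors and decoys, Il1rapl1, a synaptic member of the IL-1 receptor family, rose from 6.57 ± 1.63 to 11.8 ± 0.302 CPM (mean ± SD of n = 2 mice) and was a DEG, with a log2 fold change of 0.85 (adjusted p = 0.026 by edgeR's quasi-likelihood test) that was -0.03 with the length and GC correction. Osmr, the receptor chain for oncostatin M, which pairs with gp130, had 7.72 and 5.31 CPM in the control mice against 9.16 and 15.4 CPM in the surgery mice. It passed by DESeq2 but not by edgeR (log2 fold change 0.92, adjusted p = 0.066, and 0.70 with the correction), and is named after its values were seen. Cntfr, the receptor chain for ciliary neurotrophic factor, which also signals through gp130, fell by 0.47 on the log2 scale (adjusted p = 0.0091 by the same edgeR test), against -0.15 with the correction. Of the 5 processing and shedding enzymes, Adam10, which sheds membrane proteins including the IL-6 receptor, rose from 60.3 ± 3.60 to 85.8 ± 0.0564 CPM (mean ± SD of n = 2 mice), with a log2 fold change of 0.51 (adjusted p = 0.0064 by the same edgeR test) that was 0.09 with the correction.

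Among the 13 adaptors and kinases of IL-1 and IL-18 signaling, 2 rose and 2 fell. Tab1, a partner of the kinase TAK1, fell from 40.4 ± 1.57 to 26.1 ± 1.26 CPM (mean ± SD of n = 2 mice) and was the DEG among them, with a log2 fold change of -0.63 (adjusted p = 0.0063 by edgeR's quasi-likelihood test). Tollip, an inhibitor of the IRAK kinases, fell by 0.24 on the log2 scale, while Tab2, which links TAK1 to ubiquitin chains, and the ubiquitin ligase Peli1 rose by 0.28 each. Their adjusted p-values, by the same edgeR test, lay between 0.038 and 0.043. By comparison, DESeq2 called 2 genes of the 13 in place of 4. With the length and GC correction the log2 fold change of Peli1 was -0.33 (adjusted p = 0.077 by edgeR), and those of Tab1, Tollip and Tab2 were -0.34, -0.23 and 0.19. With the replicate block added to it, 3 of the 13 passed (Peli1, Tab1 and Tollip), all of them lower, in a fit where 14.5% of all genes tested passed. The adaptor Myd88 was at 4.76 and 4.76 CPM in the control mice against 4.39 and 4.62 CPM in the surgery mice (adjusted p = 0.81). Of the 11 TNF adaptors Cyld, a deubiquitinase that limits NF-kB, rose (log2 fold change 0.30, adjusted p = 0.025), and of the 8 genes of the NF-kB arm Chuk, the kinase IKKα, rose (0.47, 0.0091), both by edgeR's quasi-likelihood test. With the length and GC correction they were at -0.04 and 0.02 (adjusted p = 0.77 and 0.93 by the same edgeR test). When the replicate block was added, neither passed, and Nfkb1 was the 1 of the 8 genes of the NF-kB arm that did, and it was lower.

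Downstream of gp130, Jak2 rose from 30.4 ± 0.877 to 44.0 ± 1.43 CPM (mean ± SD of n = 2 mice), with a log2 fold change of 0.53 (adjusted p = 0.0074 by edgeR's quasi-likelihood test), which was 0.23 with the length and GC correction. The other 8 genes did not pass by edgeR or limma's voom, while DESeq2 also called Ptpn11, a phosphatase of this pathway (edgeR log2 fold change -0.22, adjusted p = 0.069). Stat3 had 65.1 and 61.8 CPM in the control mice against 61.2 and 65.1 CPM in the surgery mice. Socs3, an inhibitor that STAT3 induces, had 3.66 and 4.21 CPM in the control mice against 2.45 and 5.69 CPM in the surgery mice, again with both control mice between the surgery mice. Of the 12 tested targets of these pathways 0 passed by edgeR, DESeq2 or limma's voom. Cebpd, a transcription factor of the acute phase, and Serpina3n, a protease inhibitor of reactive astrocytes, were the 2 with an unadjusted p-value under 0.05 in the edgeR fit, with log2 fold changes of -0.43 and -0.20 (adjusted p = 0.063 and 0.090), and are named after their values were seen. Nfkbia, the inhibitor of NF-kB that NF-kB induces, had 22.7 and 34.4 CPM in the control mice against 18.3 and 24.2 CPM in the surgery mice (adjusted p = 0.20 by the same edgeR test).

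Within the target list, 5 of 12 genes were at least 1.5-fold higher in the second surgery mouse than in the first, against 7.96% of all genes tested. Between the control mice 2 of the 12 (Nfkbia and Vcam1) were higher by as much in the second, against 6.52% of all genes tested, and Lrg1 was lower, at 9.35 and 4.92 CPM. In the opposite direction between the surgery mice the transcription factor Cebpb, at 3.32 and 1.60 CPM in the surgery mice, was the 1 target of that size, against 3.94% of all genes tested. The 5 were Icam1 and Vcam1, adhesion molecules of endothelial cells, Lcn2 and Lrg1, which are secreted in inflammation, and the protease inhibitor Timp1, named here after their values were seen. Icam1 had 4.18 and 4.27 CPM in the control mice against 3.01 and 10.4 CPM in the surgery mice. Vcam1 had 14.9 and 25.5 CPM in the control mice against 22.5 and 48.4 CPM in the surgery mice. Lcn2 had 7.72 and 6.29 CPM in the control mice against 1.25 and 7.47 CPM in the surgery mice. In 8 of the 15 targets in the table, which include genes with too few counts to be tested, the first surgery mouse was the lowest of the 4. The share of all genes for which this holds was not computed. The second surgery mouse was above both control mice in 3 of these 8 (Icam1, Timp1 and Lrg1, named after their values were seen).

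**Figure D4:**
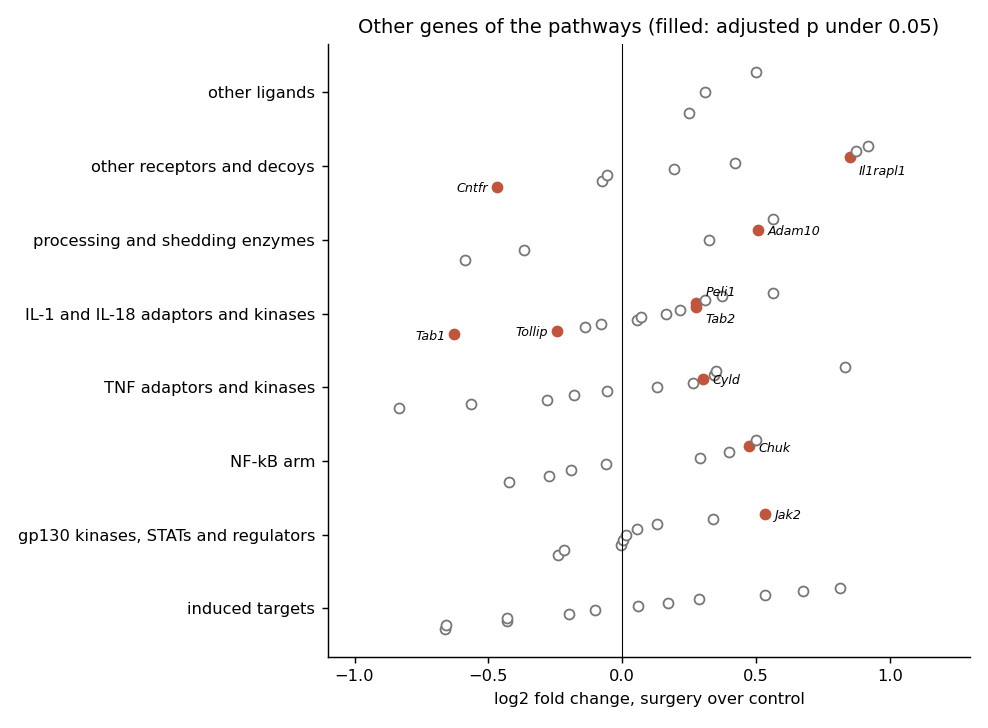
Log2 fold change of surgery over control mice (x axis) for the 69 tested genes of the pathways other than the 9 members, grouped by role on the y axis, with one circle per gene. Filled circles with names mark the 10 genes with an adjusted p-value under 0.05, of which 7 are higher and 3 are lower in the surgery mice, and none is among the induced targets.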

How the data were processed

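Poly(A) RNA from the hippocampus of 4 mice was read in pairs of 150 nt. After quality filtering, HISAT placed the reads on mm10, and the authors deposited raw counts per gene and mouse. The submitters' processing notes also name HISAT2 2.1.0, HTSeq 0.6.0, Bowtie2 2.2.3 and TopHat2 without their roles. The table's columns of fold changes and p-values hold the authors' own comparison and were not used.

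The members and gene lists were chosen with earlier results of these data known. Samples were grouped by the treatment label. In R 4.3.3 with edgeR 4.0.16, genes were filtered (filterByExpr, minimum count 10), scaled by TMM and tested with glmQLFit and glmQLFTest with the group as sole term. F statistics of the log2 fold changes gave standard errors and 95% intervals. Alternatives used limma 3.58.1 (voom), DESeq2 1.42.0, other scalings and filters, a replicate block, thinned counts, each mouse left out, and smooth trends with transcript length and GC content (mgcv 1.9.3, basis size 8, longest transcript of GENCODE M21) as offsets. The edgeR, voom, DESeq2 and offset fits were tested on simulated counts. Named were the 9 members, the up to 12 pathway genes with an adjusted p-value under 0.05 and the largest fold changes, and Tnf, Il1a, Il1rn, Myd88, Stat3, Socs3 and Nfkbia. Coordinates come from the deposited table and match GENCODE for all 9 members. Nothing states separate handling of the mice, so that p-values measure the spread between these 4 samples.

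Marker lists were those of neurons, hippocampal fields, microglia, astrocytes, oligodendrocytes, endothelial cells, choroid plexus, neutrophils and red blood cells. Of the marker lists, neurons had 1 gene that rose and 1 that fell among 6, astrocytes 2 and 2 among 6 and hippocampal fields 1 and 1 among 4, while 0 genes passed among 5 of oligodendrocytes, 3 of red blood cells, 6 of choroid plexus and 3 of neutrophils by edgeR, DESeq2 or voom, with 0 at an unadjusted p-value under 0.05. With the length and GC correction plus the replicate block, 2 of the 3 neutrophil markers (S100a8 and S100a9) were lower in the surgery mice, where 14.5% of all genes tested (2488) passed, 1737 of them lower.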

Additional observations from a re-analysis of the deposited data

How the results depend on the processing

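The direction of Il1r1 and Il18 was the same under all 14 alternatives, with log2 fold changes from 0.35 to 0.91 and from 0.17 to 0.57. The count of members that passed (2, with 1 DEG) was 0 (0 DEGs) without the filter on low counts, with the length and GC correction and with that correction plus the replicate block (3, 0 and 1 members at an unadjusted p-value under 0.05 by edgeR), and ran from 0 to 1 (0 to 1 DEGs) on leaving out 1 mouse at a time. The count of other pathway genes that passed (10) was 5 without the filter, 0 with the correction, 4 with the correction and the replicate block, and 5 to 13 with a mouse left out. Over all genes, 4450 passed, against 2665, 443, 2488 and 2408 to 4105 in the same order. The 4 pathway genes that passed with the correction and the replicate block were all lower (Nfkb1, Peli1, Tab1 and Tollip), as were 1737 of the 2488 genes. Without the filter more genes are tested, and with a mouse left out fewer samples are fitted. The length and GC correction removes a trend of the libraries, and why they differ in it was not tested.

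Log2 fold changes turned negative for Il1rap with the correction (-0.10, and -0.10 with the replicate block) and for Il6st (-0.0091 and -0.0096). Il6ra turned negative with limma's voom (-0.014), in thinned counts (-0.020), without the second control mouse (-0.0091) and without the second surgery mouse (-0.51), as did Tnfrsf1a (-0.40) and Tnfrsf1b (-0.19) without the second surgery mouse. Without the first surgery mouse they were 0.45 for Il6ra, 0.44 for Tnfrsf1a and 0.42 for Tnfrsf1b. The cause was not tested. With the replicate block alone, 2 members, 14 pathway genes and 5279 genes passed. Differences between same-numbered mice correlated at 0.26 across genes. The sources do not say whether same-numbered mice shared a batch or a day, and with 2 mice per group this was not tested. Counts were few for Il1b and Il6, at 14 or fewer in each library. For Il1b the surgery mice, at 0 and 14 counts, also differed by more than counting error.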
